A study of Mus musculus with 4 samples.

Results

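The epidermal differentiation complex (EDC) is a cluster of genes on mouse chromosome 3 whose products build the outer protein shell of terminally differentiated keratinocytes. Its members were chosen by symbol and chromosome: all Sprr genes, all Lce genes with a number, the S100a genes with a number other than S100a8 and S100a9, and Lor, Ivl, Flg2, Hrnr, Rptn, Tchh, Tchhl1 and Crnn. This gave 57 of the 22913 genes measured, from S100a1 (GRCm38 chromosome 3, start 90511034) to S100a10 (end 93564643). They fell into 16 small proline-rich (SPRR) genes, 21 late cornified envelope (LCE) genes, 12 S100 genes, 6 fused S100-type genes, and loricrin with involucrin as the last 2. Expression was measured by RNA sequencing of dermal white adipose tissue (dWAT), the fat layer around the lower ends of hair follicles (HFs), in C57BL/6 mice. The 4 groups were old mice in telogen (OTD), young mice in telogen (YTD), old mice in anagen (OAD) and young mice in anagen (YAD), where telogen is the resting phase of the HF and anagen the growth phase, here started by depilation. Old mice were 18 months and young mice 2 months of age by the treatment protocol and the study's methods, which name 20 mice per group, while the age field of the labels gives 18 months for YTD and 2 months for OAD. The group names were used. The layer was scraped from the bottom of the HFs after microdissection, and the study mentions that hair bulbs could not be kept out of it. Each group is 1 library, so no difference below has a replicate check, an SD or a p-value.

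In epidermis, a differentiating keratinocyte replaces its plasma membrane from the inside with a cornified envelope. Involucrin and the plakin scaffold are laid down first, loricrin and the SPRR proteins are then crosslinked onto it by transglutaminases, and LCE proteins are added last. Fused S100-type proteins join a calcium-binding S100 domain to long repeats and bundle keratin filaments, and trichohyalin does so in the inner root sheath and the medulla of the HF. Fat cells make no cornified envelope, while many S100 genes are expressed in other cell types too, among them fibroblasts and immune cells.

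The values are FPKM, fragments scaled by transcript length and library size, and a difference is given on the log2(FPKM + 1) scale, which understates the change of low genes. A gene is counted as higher or lower when this difference is at least 1 in size. Counts behind the values were estimated from the FPKM worth 1 fragment, roughly 16700000 to 22400000 fragments per library, and a value worth 3 fragments or fewer is called under the floor. The 95% intervals on folds come from these estimates and cover counting error only. Of all FPKM in a library, mitochondrially encoded genes made up 52.7% (OTD), 44.7% (YTD), 18.3% (OAD) and 14.4% (YAD), and 14 skeletal muscle genes summed to 69369.9, 108698, 16508 and 12348 FPKM in the same order. The values are not corrected for this, and the effect of other scalings is given where it turns a direction. The adipocyte markers, which check the tissue label, summed to 7796 FPKM (OTD), 6491 (YTD), 2706 (OAD) and 1895 (YAD).

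The EDC was measured in all 4 libraries, at a higher sum in anagen than in telogen. The 57 genes summed to 1919 FPKM (OTD), 1825 (YTD), 14688 (OAD) and 11086 (YAD). Of these genes, 46 were above 0 in at least 1 library. The other 11 were listed at 0 in each library: Sprr2a1, Sprr2a2, Sprr2d, Sprr2e, Sprr2j-ps, Sprr2k, Sprr3, Lce1h, Lce1j, Lce3e and S100a5. Above the floor were 22 members in OTD and 18 in YTD, but 36 in each anagen library. In telogen the sum was nearly all S100 genes, 95.8% in OTD and 93.3% in YTD. In anagen S100 genes held 52.3% in OAD and 63.0% in YAD, and fused S100-type genes 34.1% and 27.0%. A pair of genes, Tchh and S100a3, made up 60.5% of the EDC sum in OAD and 63.6% in YAD, against 3.96% in OTD and 10.3% in YTD.

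**Figure D1:**
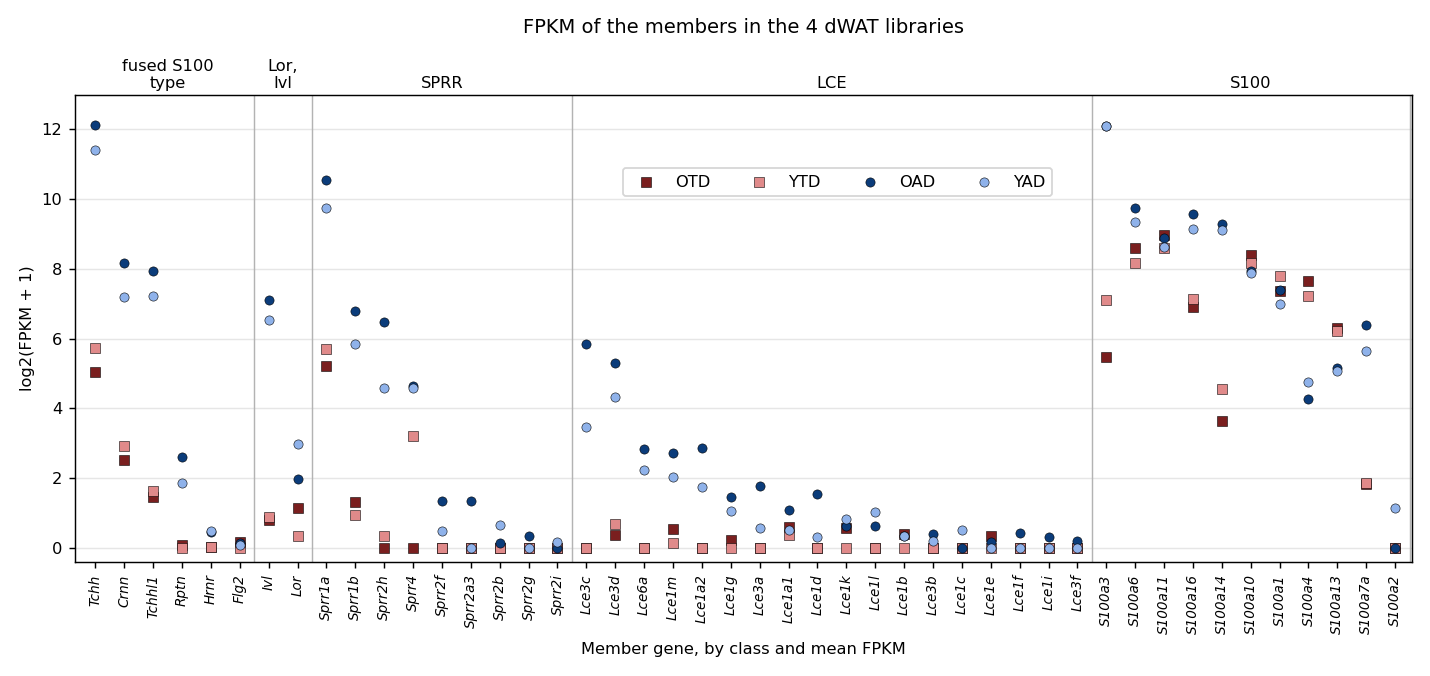
Level of each of the 46 members above 0, as log2(FPKM + 1), in OTD and YTD (squares) and OAD and YAD (circles). Members are grouped by class and ordered by mean FPKM. Tchh, Sprr1a and S100a3 lead their classes in anagen, most LCE genes lie near 0, and S100a4 is the member with the widest gap in favour of telogen.

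The fused S100-type genes held the highest member in old anagen. Tchh (ENSMUSG00000052415), which encodes trichohyalin, had an FPKM of 32.2 (OTD), 51.8 (YTD), 4477 (OAD) and 2693 (YAD). Tchhl1, its neighbour, had 1.72, 2.11, 243 and 147 in the same order. Crnn, which encodes cornulin of the upper epidermis, had 4.77, 6.61, 289 and 146. All 3 were low in both telogen libraries and high in both anagen libraries, with OAD above YAD. Rptn, which encodes repetin, reached only 5.08 in OAD and 2.59 in YAD. Hrnr (hornerin), at 0.373 and 0.384, and Flg2, at 0.108 and 0.0486, stayed under 1 FPKM in each library. The sum of this class thus followed the follicular member, Tchh, which held 89.3% of it in OAD.

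Among the SPRR genes, which encode crosslinked bridging proteins of the envelope, Sprr1a (ENSMUSG00000050359) was highest, with 36.2 FPKM (OTD), 51.1 (YTD), 1504 (OAD) and 866 (YAD). It held between 84.5% and 96.1% of the class sum in each library. Sprr1b had 1.48, 0.936, 109 and 57.0 in that order. Sprr2h (ENSMUSG00000046259), the only Sprr2 gene above 2 FPKM in any library, was listed at 0 in OTD, with 0.271 in YTD, 87.4 in OAD and 23.2 in YAD. In this tandem family, 6 Sprr2 genes were listed at 0 throughout and 5 others reached at most 1.54 FPKM. Of the 100-base windows of their transcripts, only 7.51% for Sprr2a1 and 7.19% for Sprr2a2 are found in no other gene, so that the listed 0 of these 2 genes is uncertain. These 5 were Sprr2a3, Sprr2b, Sprr2f, Sprr2g and Sprr2i, and Sprr2b was the one of them with its higher value in YAD (0.586) and more than 3 fragments behind it. Sprr4 was listed at 0 in OTD, with 8.14 in YTD, 23.7 in OAD and 23.0 in YAD. Its reference transcript is only 231 bases long, so that few fragments stand behind these values, roughly 4.21 in YTD and 15.9 in OAD.

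The LCE genes, whose products are added late to the envelope, were the lowest class, with summed FPKM of 2.48 (OTD), 0.985 (YTD), 124 (OAD) and 43.4 (YAD). A pair of Lce3 genes led them in anagen. Lce3c (ENSMUSG00000045475) was listed at 0 in both telogen libraries, where the floor was 0.486 and 0.490 FPKM, and had 56.9 in OAD and 10.1 in YAD. Lce3d had 0.277 (OTD), 0.607 (YTD), 38.7 (OAD) and 19.2 (YAD). These values are low in telogen and highest in OAD for both genes. Lce6a was listed at 0 in both telogen libraries and had 6.15 in OAD and 3.71 in YAD, and Lce1m, which lies apart from the other Lce1 genes beyond Lce3f, had 0.442, 0.0987, 5.64 and 3.11 in the order OTD, YTD, OAD, YAD. Of the 21 LCE genes, 12 were above the floor in OAD, 11 in YAD, 3 in OTD and 0 in YTD. The Lce1 genes and Lce6a reached at most 6.32 FPKM (Lce1a2 in OAD), and no LCE gene reached 1 FPKM in telogen.

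Involucrin and loricrin, the early and the late major envelope proteins of epidermis, differed in level and in pattern. Ivl had 0.738 FPKM (OTD), 0.827 (YTD), 136 (OAD) and 91.1 (YAD). Lor (ENSMUSG00000043165), which encodes the most abundant envelope protein of interfollicular epidermis, had 1.19, 0.265, 2.92 and 6.94. Lor was thus far below Ivl in anagen, and its order between OAD and YAD was the opposite. Of the suprabasal keratinocyte list, the keratins Krt1, with at most 0.126 FPKM in any library, and Krt10, with at most 3.78, were low, but other genes of the list were high in OAD, among them Dmkn (379), Asprv1 (305) and Cdsn (188). The hair inner root sheath keratin Krt71 had 4503 in OAD and 3502 in YAD. The part of interfollicular epidermis in these values was not tested.

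**Figure D2:**
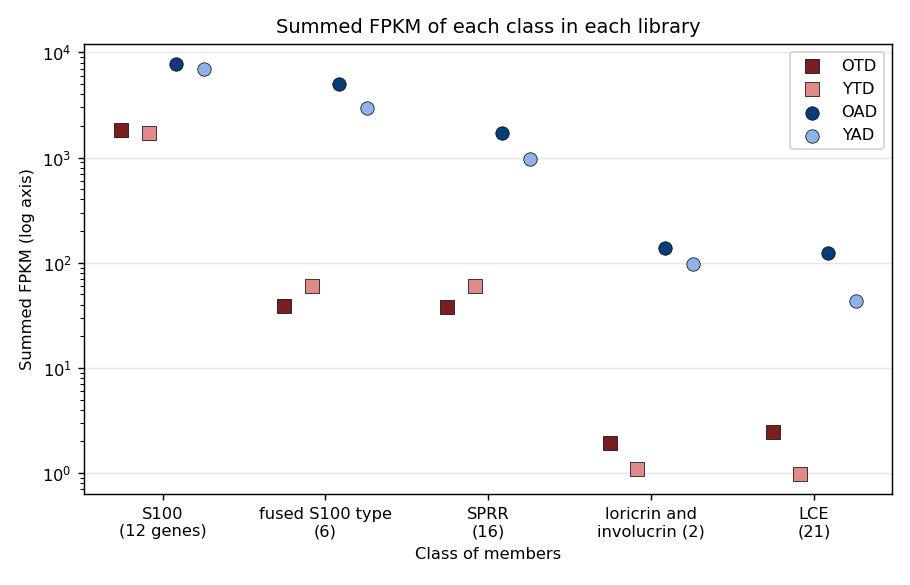
Summed FPKM of the members of each class (log axis) in OTD and YTD (squares) and OAD and YAD (circles), 1 library per group. All 5 classes are higher in both anagen libraries than in both telogen libraries, by the least in S100 genes, and OAD lies above YAD in each class, for S100 genes not in TPM or without mitochondrially encoded genes.

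The comparison of anagen with telogen within an age asks how the EDC differs between depilation-induced anagen and telogen. Hair phase and depilation cannot be told apart here, as anagen was started by depilation in both ages. In young mice 23 of the 46 members were higher in YAD than YTD and 2 were lower, while 15.6% of all 18152 genes above 0 were higher and 16.2% lower. In old mice 24 were higher in OAD than OTD and 2 lower, against 15.7% and 15.2% of all genes. The median difference of the members was 0.92 in young and 1.20 in old mice, where that of all genes was 0.00 in both. Of the higher members, 20 passed in both ages. These 2 comparisons share no library.

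The largest differences were those of Tchh, 5.67 in young mice, a 52.0-fold higher FPKM (95% interval 50.5 to 53.5), and 7.08 in old mice, a 139-fold higher FPKM (134 to 144). S100a3, which encodes a calcium- and zinc-binding protein of the hair cuticle, was 31.9-fold higher in YAD than YTD (29.8 to 34.1) and 101-fold higher in OAD than OTD (89.7 to 114). Ivl was 110.2-fold higher in young (73.2 to 171) and 185-fold higher in old mice (123 to 304). Sprr1a was 17.0-fold higher in young (15.5 to 18.5) and 41.5-fold higher in old mice (37.5 to 46.2). For these 4 genes the old pair gave the larger fold. Lor went the other way, 26.1-fold higher in young (12.5 to 65.5) and 2.45-fold higher in old mice (1.61 to 3.73). The class sums were 49.3-fold higher in YAD than YTD for fused S100-type genes, 44.0-fold for LCE genes, 16.1-fold for SPRR genes, 4.10-fold for S100 genes and 89.8-fold for loricrin with involucrin. In the old pair these were 129-fold, 49.9-fold, 45.8-fold, 4.18-fold and 72.2-fold, so that loricrin with involucrin was the class with the smaller fold in old mice. Ivl alone had the larger fold in old mice, and Lor rested on roughly 31.7 fragments in OTD and 6.99 in YTD.

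S100 genes were the class with members in both directions. S100a14, an epithelial S100 gene, had 11.4 FPKM (OTD), 22.4 (YTD), 626 (OAD) and 548 (YAD). S100a16 had 119, 139.7, 755 and 570.1, and S100a7a, a psoriasin-type gene of stressed epidermis, had 2.58, 2.62, 82.4 and 49.0. S100a6, of proliferating epithelial and stromal cells, had 384, 284, 864 and 648. These genes, like S100a3, were higher by at least 1 in anagen in both ages. S100a4, a gene of fibroblasts and immune cells, went the other way, with 200.3 (OTD), 149 (YTD), 18.4 (OAD) and 25.8 (YAD). It was 5.78-fold higher in YTD than YAD and 10.9-fold higher in OTD than OAD. S100a13 was the other member lower in anagen, with 77.7 and 73.1 in telogen and 34.9 and 32.6 in anagen. S100a10, S100a11 and S100a1 were within 1 on the log2 scale in each comparison, S100a11 between 385 and 496 FPKM. Of the 100-base windows of their transcripts, 58.1% for S100a4 and 66.0% for S100a11 are found in no other annotated gene, so that their values could hold reads of a copy or of an overlapping gene.

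The fibroblast and macrophage markers, lists chosen for this tissue, moved in the direction of S100a4. All 10 fibroblast genes and all 10 macrophage genes were lower in anagen in both ages, with summed FPKM of 1758, 1279, 238 and 465 for fibroblasts and 820.5, 502, 103 and 131 for macrophages in OTD, YTD, OAD and YAD. This direction was not particular to these lists. All 10 adipocyte and all 10 endothelial genes were also lower in anagen in both ages. Of 14 skeletal muscle genes, 14 were lower in young and 13 in old mice. The HF lists and the suprabasal keratinocyte list moved in the direction of the envelope genes, and the basal keratinocyte list did so less evenly. All 9 inner root sheath genes and all 14 hair shaft genes above 0 were higher by at least 1 in anagen in both ages, with sums of 221, 359.9, 14750.0 and 10029 for the inner root sheath and 36.5, 108, 11606 and 12129 for the hair shaft. Of 15 suprabasal keratinocyte genes, 12 were higher by at least 1 in YAD than YTD and 10 in OAD than OTD, with sums of 68.7, 77.7, 1421 and 1031. Of 9 basal keratinocyte genes, 7 were higher and 2 lower in YAD than YTD, Dst by more than 1 (-1.23). In OAD against OTD, 5 of the basal genes were higher and 4 lower. In bulk tissue, more cells of a type and more RNA per cell cannot be told apart, and the part of these lists in the differences of the members was not tested.

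The members were also set against keratinocyte genes. The 24 basal and suprabasal epidermal keratinocyte genes had a median difference of 2.49 in young and 2.87 in old mice. With this median subtracted, 11 members were higher by at least 1 and 28 lower in young mice, and 13 were higher and 28 lower in old mice. Members near 0 FPKM in each library fall below this median by construction, so that these counts mix them with well measured members. The 25 members with a mean FPKM of at least 1 had medians of 2.65 in young and 4.54 in old mice. Some reach that mean only through their anagen values, which raises these medians. Tchh, S100a3, Sprr1a, Crnn, Ivl and Tchhl1 were among those above the keratinocyte median in both ages. S100a1, S100a6, S100a10, S100a11, S100a16 and Rptn were among those below it in both ages. Other genes of envelope assembly stood with the high members: of 10 genes for scaffold and crosslinking proteins, 9 were higher by at least 1 in both ages, among them Cnfn (cornifelin) with 13.2 FPKM in OTD against 941 in OAD and Evpl (envoplakin) with 0.598 against 85.6. Of 10 barrier lipid genes, 8 were higher by at least 1 in each age.

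**Figure D3:**
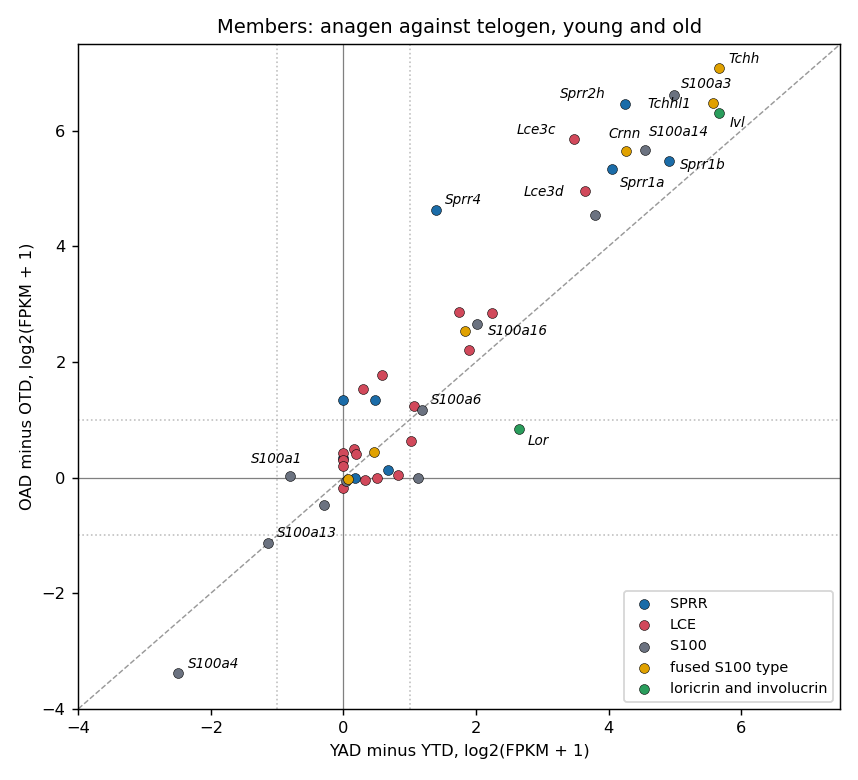
Difference between anagen and telogen in log2(FPKM + 1) for the 46 members, in young mice (YAD minus YTD, horizontal) and old mice (OAD minus OTD, vertical), coloured by class. Dotted lines mark differences of 1 and the dashed line equal differences. High SPRR, LCE and fused S100-type members lie above the dashed line, Lor lies below it (2.65 and 0.84), and S100a4 and S100a13 are at the lower left.

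The comparison of old with young mice in anagen asks how the EDC differs with age in the growth phase. The study reports that old mice took more days after depilation to enter anagen than young mice. Age, days since depilation and stage within anagen therefore cannot be told apart. Of the 46 members, 6 were higher by at least 1 in OAD than YAD, where 0.705% of all genes were, and 2 were lower, where 0.441% were. The 6 were Lce3c (2.38), Sprr2h (1.87), Sprr2a3 (1.34), Lce1d (1.24), Lce3a (1.20) and Lce1a2 (1.13). The 2 were S100a2 (-1.13) and Lor (-1.02). Of all 46, 37 were higher and 9 lower in OAD, and their median was 0.41 where that of all genes was 0.00. In TPM the split was 31 to 15 and the median 0.28, and all genes then had a median of -0.15, so that relative to all genes the members had 0.43.

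Lce3c had the largest age difference of the members, with 56.9 FPKM in OAD and 10.1 in YAD, a 5.60-fold higher value (95% interval 4.44 to 7.20). Sprr2h had 87.4 in OAD and 23.2 in YAD, 3.76-fold higher (3.30 to 4.31). Sprr2h and Lce3c are thus genes at or near 0 in telogen that were plainly measured in anagen and were far apart between the ages. The other 4 were low: Lce1a2 had 6.32 and 2.34 FPKM, 2.71-fold higher (1.72 to 4.40), Lce3a 2.43 and 0.490, Lce1d 1.90 and 0.231, and Sprr2a3 1.53 in OAD and a listed 0 in YAD. Lce3c shares sequence with other Lce3 genes, so that 75.9% of the 100-base windows of its transcript are found in no other gene's transcript. This share was 71.7% for Lce3d, 63.8% for Sprr2a3, while Sprr2h, Sprr1a, Lor and Tchh share no window with another gene. Reads from the shared windows could have been split between copies, so that the values of single Lce3 and Sprr2a genes are uncertain.

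Several other members showed smaller age differences in the same direction. Crnn was 1.99-fold higher in OAD than YAD (1.92 to 2.06), Lce3d 2.01-fold (1.62 to 2.52), Sprr1b 1.91-fold (1.75 to 2.08), Sprr1a 1.74-fold (1.70 to 1.78) and Tchh 1.66-fold (1.66 to 1.67). On the log2(FPKM + 1) scale all of these were short of a difference of 1. Of the 33 members above the floor in both anagen libraries, 28 were higher in OAD and 5 lower. The 5 were Lor, S100a4, Hrnr, Lce1k and Lce1l. In TPM, 23 were higher and 10 lower, the 5 that turned being S100a3, S100a10, S100a13, S100a14 and Sprr4. The class sums were 2.85-fold higher in OAD for LCE, 1.78-fold for SPRR and 1.68-fold for fused S100-type genes, and these stayed above 1 under each scaling tried. The S100 sum was 1.10-fold higher as deposited but 0.937-fold in TPM and 0.981-fold without mitochondrially encoded genes.

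Lor was the member with enough fragments that was lower in old anagen by at least 1, with 2.92 FPKM in OAD and 6.94 in YAD, a 0.421-fold value (0.331 to 0.534). Krt2, a keratin of late interfollicular keratinocytes and no member, had 0.204 in OAD and 2.98 in YAD, and was named after its value was seen. It was an exception in the suprabasal list, of which 13 of 15 genes were higher in OAD, Krt1 (0.126 and 0.0597) and Krt10 included. S100a2 was listed at 0 in OAD and had 1.19 in YAD, which is worth roughly 3.07 fragments and so lies at the floor.

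The promoters of members that differed between the ages in anagen are shown for the 250 bases before the start site, written 5′ to 3′ on the strand of the gene, from the RefSeq promoter table on GRCm38.p6. Sprr2h, Lce3a and Lce3c stand for the genes higher in OAD and Lor for those lower. Lce1a2, Lce1d and Sprr2a3, also counted as higher, are not shown. Sprr1a, Crnn and Lce3d were added after their values were seen, as abundant members of the same classes. Capitals mark the letters TGANTCA, with any base at N, and TATAAA, the TATA box, read on both strands. TGANTCA is a looser form of the site of AP-1, a factor known to drive envelope genes.
Sprr2h (chr3:92385435-92385684, plus strand): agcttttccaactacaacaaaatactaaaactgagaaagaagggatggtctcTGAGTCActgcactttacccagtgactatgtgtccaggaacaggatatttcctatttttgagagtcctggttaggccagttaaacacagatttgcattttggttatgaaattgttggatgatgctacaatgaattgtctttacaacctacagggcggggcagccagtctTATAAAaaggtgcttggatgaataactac
Sprr1a (chr3:92485882-92486131, minus strand): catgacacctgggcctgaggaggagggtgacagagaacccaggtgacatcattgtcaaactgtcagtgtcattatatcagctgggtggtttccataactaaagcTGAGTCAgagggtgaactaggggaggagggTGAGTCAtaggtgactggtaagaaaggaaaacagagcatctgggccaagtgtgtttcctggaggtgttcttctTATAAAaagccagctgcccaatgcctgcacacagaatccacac
Crnn (chr3:93144539-93144788, plus strand): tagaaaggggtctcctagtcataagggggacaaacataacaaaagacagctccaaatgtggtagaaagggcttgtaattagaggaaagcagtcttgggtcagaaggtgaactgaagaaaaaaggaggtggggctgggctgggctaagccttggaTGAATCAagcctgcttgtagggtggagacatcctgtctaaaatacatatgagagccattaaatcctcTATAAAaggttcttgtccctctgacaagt
Lor (chr3:92083143-92083392, minus strand): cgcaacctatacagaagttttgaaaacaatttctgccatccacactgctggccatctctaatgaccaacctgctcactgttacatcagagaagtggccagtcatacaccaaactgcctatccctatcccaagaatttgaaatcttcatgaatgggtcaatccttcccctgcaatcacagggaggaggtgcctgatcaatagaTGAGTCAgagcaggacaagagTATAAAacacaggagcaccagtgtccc
Lce3c (chr3:92944236-92944485, plus strand): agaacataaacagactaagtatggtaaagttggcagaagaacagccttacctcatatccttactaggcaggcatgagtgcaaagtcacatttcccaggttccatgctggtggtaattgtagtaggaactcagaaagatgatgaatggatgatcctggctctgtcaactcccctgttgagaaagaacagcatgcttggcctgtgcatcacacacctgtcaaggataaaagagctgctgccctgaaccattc
Lce3d (chr3:92957140-92957389, plus strand): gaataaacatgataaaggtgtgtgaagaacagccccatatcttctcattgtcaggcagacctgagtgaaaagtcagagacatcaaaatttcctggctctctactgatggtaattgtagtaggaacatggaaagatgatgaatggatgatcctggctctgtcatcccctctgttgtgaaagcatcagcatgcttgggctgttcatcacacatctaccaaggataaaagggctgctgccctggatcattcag
Lce3a (chr3:92926231-92926480, minus strand): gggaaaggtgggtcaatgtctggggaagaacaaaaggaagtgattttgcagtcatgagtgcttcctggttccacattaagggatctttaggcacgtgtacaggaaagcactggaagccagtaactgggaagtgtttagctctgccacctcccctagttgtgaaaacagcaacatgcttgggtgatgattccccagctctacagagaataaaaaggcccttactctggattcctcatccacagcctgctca
Sprr1a holds TGANTCA at 2 places, with first bases 146 and 116 bases before the start, and Sprr2h, Crnn and Lor hold it at 1 place each, at 198, 96 and 48 bases. The 3 Lce3 promoters hold neither set of letters in the stretch shown. The promoter of Lce1d, not shown, holds TATAAA 30 bases before the start.

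Over the whole EDC the LCE promoters likewise lacked TGANTCA, but some of them held TATAAA. RefSeq promoters of 300 bases, 250 before and 50 after the start, were found for 51 of the 57 members. TGANTCA was in 17 of these 51 (33.3%), against 8.97% of 27025 genes with a promoter in the table. It was in 9 of 14 SPRR promoters, 4 of 6 fused S100-type promoters, both the Lor and the Ivl promoter, 2 of 9 S100 promoters and 0 of 20 LCE promoters. TATAAA was in 21 of 51 (41.2%), against 15.7% of all genes, and in 10 of 14 SPRR and 4 of 20 LCE promoters. CACCC, the site of KLF factors, was in 54.9% of the members' promoters and 59.8% of all, and AACNNGTT, the site of grainyhead-like factors, in 3.92% and 4.77%. Matches of 2 different sets of letters overlapped in 1 of the 55 promoter entries of the members. Sprr2 promoters share their layout, and those of genes at 0 in each library, Sprr2d, Sprr2e and Sprr2k, hold TGAGTCA and TATAAA as that of Sprr2h does. TGANTCA was in 10 of the 27 promoters of members counted as higher or lower in at least 1 comparison and in 7 of the other 24. These are matches of letters in a window and say nothing about binding.

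In telogen fewer members were counted as different with age. Only 16 members reached 1 FPKM in OTD and 15 in YTD, and a pseudocount of 1 understates changes at such low values. The count rises with a smaller pseudocount, as it does in anagen. None of the 46 members was higher by at least 1 in OTD than YTD, where 1.58% of all genes were, and 2 were lower, where 1.83% were. These were Sprr4 (-3.19), listed at 0 in OTD and worth roughly 4.21 fragments in YTD, and S100a3 (-1.62). The median of the members was 0.00, and that of all genes was -0.01. Of 17 members above the floor in both telogen libraries, 7 were higher and 10 lower in OTD, and only 7 of the 17 are not S100 genes.

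S100a3 (ENSMUSG00000001021) had 43.7 FPKM in OTD and 136 in YTD, 3.12-fold higher in YTD, and 4415 in OAD and 4352 in YAD. Its value was thus lower in old mice in telogen, and nearly the same in both ages in anagen. The 14 hair shaft genes had the same order in telogen, all 14 lower in OTD at a median of -1.04. In anagen 11 of them were lower in OAD than YAD and 3 higher, at a median of -0.20. Tchh had 0.621 times the YTD value in OTD (0.593 to 0.650), Sprr1a 0.709 times (0.618 to 0.811), Crnn 0.721 times (0.566 to 0.912) and S100a14 0.510 times (0.403 to 0.648). Each of these 4 was higher in OAD than YAD, S100a14 not in TPM. The 9 inner root sheath genes were likewise all lower in OTD (median -0.70), and 8 of the 9 were higher in OAD (median 0.45). The SPRR sum was 0.624 and the fused S100-type sum 0.642 of that in YTD, and each was below 1 under each scaling tried. The other 3 classes had the higher sum in OTD under each scaling tried, 2.51-fold for LCE, most members of which were under the floor, 1.77-fold for loricrin with involucrin and 1.08-fold for S100 genes. Lor alone was 4.49-fold higher in OTD (1.97 to 12.2). S100a4 (200.3 and 149 FPKM), S100a6 (384 and 284) and S100a11 (496 and 385) were higher in OTD, by less than 1 on the log2 scale.

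**Figure D4:**
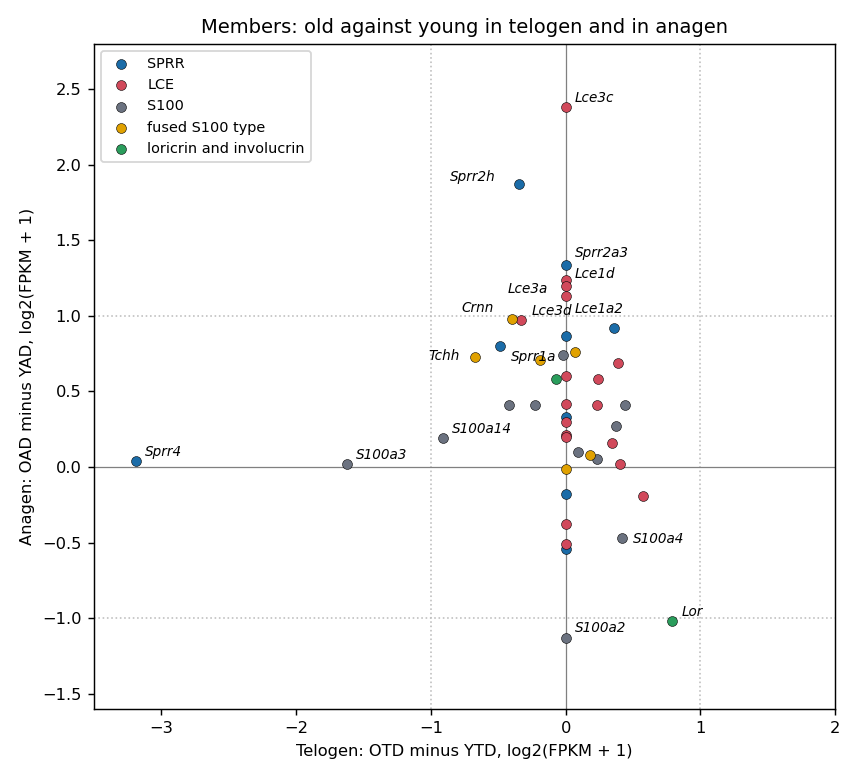
Difference between old and young mice in log2(FPKM + 1) for the 46 members, in telogen (OTD minus YTD, horizontal) and anagen (OAD minus YAD, vertical), coloured by class. Dotted lines mark differences of 1. Lce3c (2.38) and Sprr2h (1.87) lie highest, Sprr4 (-3.19) and S100a3 (-1.62) farthest left, and Lor is at the lower right (0.79 and -1.02). Few fragments stand behind the telogen values of Sprr4.

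Some genes of the same region that are no members had the anagen pattern of the envelope genes. Prr9, a proline-rich gene of the region, had 59.6 FPKM (OTD), 62.8 (YTD), 2445 (OAD) and 1331 (YAD), and Crct1, a cysteine-rich one, 18.7, 22.5, 801 and 412. Kprp, a keratinocyte proline-rich gene, had 15.6 in OAD and 4.25 in YAD. Of 9 such genes, 8 were higher in OAD than YAD, 3 of them by at least 1 (S100a9, Kprp and S100a8), and 3 were higher by at least 1 in anagen in each age (Prr9, Crct1 and Kprp). S100a8 and S100a9, subunits of calprotectin, were near their telogen level in old anagen (129 against 123 FPKM for S100a8 and 11.2 against 11.7 for S100a9). In young mice S100a8 was lower in anagen, with 56.7 in YAD against 114 in YTD, and S100a9 had 1.26 against 0.656.

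Most lists of keratinocyte genes were also higher in OAD. OAD had the higher value for 13 of 15 suprabasal genes (median 0.40) and for 8 of 10 scaffold and crosslinking genes (median 0.44). In TPM 10 of the 15 suprabasal genes (median 0.17) and 6 of the 10 scaffold and crosslinking genes (median 0.21) were higher. All 4 keratins of wounded and stressed epidermis were higher (median 1.04), Krt6a (157 and 62.2 FPKM) and Krt6b (3.76 and 0.415) by more than 1. Of 9 basal keratinocyte genes, 6 were higher (median 0.06), but in TPM only 2 were (median -0.16). A higher value in OAD was not particular to keratinocyte lists. All 10 adipocyte (median 0.25), all 10 endothelial (0.35) and 11 of 14 skeletal muscle genes (0.28) were higher as deposited. In TPM these medians were 0.02, 0.15 and 0.09. All 10 fibroblast, all 10 macrophage and all 8 melanocyte genes were lower in OAD. The part of these lists in the differences of the members was not tested. Of 15 transcription factors of epidermal differentiation, none differed by 1 between OAD and YAD, the largest difference being that of Cebpb, with 262 and 148 FPKM. In anagen against telogen, 11 of the 15 were higher by at least 1 in young mice and 9 in old mice, among them Grhl1 (1.69, 3.40, 98.6 and 92.6 FPKM in OTD, YTD, OAD and YAD) and Zfp750 (0.509, 1.61, 55.8 and 59.0).

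**Figure D5:**
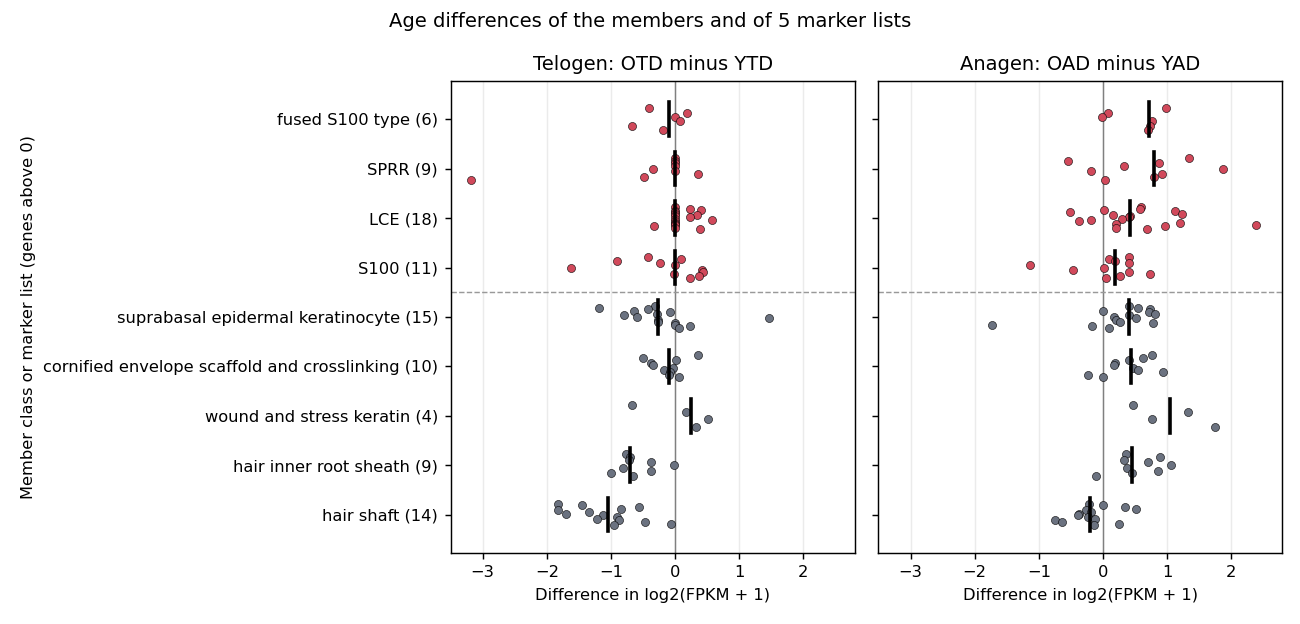
Age difference in log2(FPKM + 1) of each gene above 0 (points) with the median (bar), in telogen (OTD minus YTD) and anagen (OAD minus YAD), for 4 classes of members (red) and 5 marker lists (grey). In anagen the SPRR (0.80), fused S100-type (0.72) and LCE (0.42) medians lie above 0 with those of the suprabasal, scaffold, wound keratin and inner root sheath lists, and that of the hair shaft list lies below (-0.20).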

How the data were processed

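Tissue of the 4 groups was sequenced as 1 library each. The authors deposited FPKM per gene with positions on GRCm38 and, per the labels, used TopHat2 and bcl2fastq; the counting tool and annotation are not given in the sources used here. The listed gene length is the coding length, but the FPKM of 4399 single-transcript genes fitted the reference transcript length less 200 bases, which was used to estimate fragments (GENCODE M21). The FPKM were used as deposited with a pseudocount of 1, and genes at 0 in all 4 libraries were left out, leaving 18152. A difference of at least 1 in log2(FPKM + 1) was counted. Groups of 1 allow no test. The 95% intervals are exact Clopper-Pearson bounds on the share of fragments, and several S100 genes have more than 1 transcript, so that their fragments are rough. Of 22166 Ensembl identifiers, 21750 were matched to a symbol.

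The members and lists were chosen with earlier results of these data known. Members named are those with a difference of at least 1 in any comparison, the highest of each class and the 5 highest of all, and for the lists the 2 highest by mean FPKM. Other list genes, and values of members outside the rule, were named after their values were seen. The depth estimate and the counts were tested on simulated data. Python 3.11.15, numpy 2.4.6, pandas 2.3.3, scipy 1.17.1 and matplotlib 3.10.9 were used. Results were recomputed with a pseudocount of 0.1 or 0.01, a threshold of 1.5, a mean FPKM of at least 1, scaling by the median of ratios, TPM, rescaling without mitochondrially encoded genes or also without muscle, hair shaft and Krtap genes, the block from the first to the last LCE, SPRR or loricrin gene, and subtracting the median of the keratinocyte lists.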

Additional observations from a re-analysis of the deposited data

Results flagged for a closer look

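In 5 members the age difference had opposite directions in telogen and anagen, each beyond counting error, and the differences of log2(FPKM + 1) were at least 1 apart. The difference between the phases was not tested, as each group is 1 library. The age difference in anagen minus that in telogen was 1.40 for Tchh (-0.67 in telogen and 0.73 in anagen), 1.38 for Crnn (-0.40 and 0.98), 1.28 for Sprr1a (-0.49 and 0.80) and 1.10 for S100a14 (-0.91 and 0.19, the latter -0.04 in TPM). It was -1.81 for Lor (0.79 and -1.02), the member with the reverse order. With a smaller gap, S100a1, S100a16 and S100a4 also had opposite directions, so that 8 members did in all, 6 of them lower in OTD and higher in OAD.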

How the results depend on the processing

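Each group is 1 library, so leaving out a replicate was not done. No paired analysis was possible because the groups share no more than 1 replicate number. CPM from counts was not run, as no counts were used. The estimated depth limits LCE and Sprr2 values in telogen, most of which lie under 3 fragments. Of the differences of named members that were at least 1 as deposited, 20 changed sign, all on subtracting the keratinocyte median, where a member that is higher by less than that list changes sign by construction. Smaller differences also turned under other scalings, such as that of S100a3 in anagen from 0.02 to -0.21 in TPM.

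Members counted in telogen (2 with a pseudocount of 1) became 10 and 12 with pseudocounts of 0.1 and 0.01, 1 in the block of envelope genes and 1 without S100 genes, an alternative chosen after seeing the data, as was keeping members above the floor. The telogen median became -0.02 at a mean FPKM of at least 1 and 0.27 relative to the keratinocyte lists. Members counted between ages in anagen (8) became 19 and 21 with the smaller pseudocounts, 2 at a threshold of 1.5 and 4 at a mean FPKM of at least 1, and the median (0.41) 0.72 and 0.73 with the smaller pseudocounts and 0.22 relative to the keratinocyte lists, with 30 members higher and 16 lower. Between phases in young mice, 25 became 13 in the block and 39 relative to the keratinocyte lists, and the median (0.92) became 2.48 and 4.60 with pseudocounts of 0.1 and 0.01, 2.65 at a mean FPKM of at least 1, and -1.58 relative to the lists. In old mice, under the same alternatives, 26 became 15 and 41, and the median (1.20) became 2.69, 4.87, 4.54 and -1.67.

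The differences that changed sign relative to the keratinocyte lists were, in young mice, those of Lce1a2 (-0.75), Lce1g (-1.43), Lce1l (-1.47), Lce1m (-0.59), Lce6a (-0.26), Rptn (-0.65), S100a16 (-0.47), S100a2 (-1.36), S100a6 (-1.30) and Sprr4 (-1.10), and in old mice those of Lce1d (-1.33), Lce1g (-1.63), Lce1m (-0.67), Lce3a (-1.09), Lce6a (-0.03), Rptn (-0.34), S100a16 (-0.22), S100a6 (-1.70), Sprr2a3 (-1.53) and Sprr2f (-1.52).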
